A study of Mus musculus with 24 samples.

Results

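The mitosis and G2/M genes are 43 genes that a dividing cell uses between the end of DNA replication and the separation of its daughters. They were chosen by symbol from the deposited table of 39253 genes and had to reach 0.5 CPM, a count scaled by the depth of its sample, in at least 3 samples. All 43 listed genes were in the table and all passed, among 13901 genes tested. RNA-seq was carried out on wild-type Neuro2A cells (mouse neuroblastoma), with 24 samples that form 8 groups of 3. In 6 groups the cells received plasmids for a CRISPR effector that cuts RNA and were harvested 48 hr after transfection. The effectors were RfxCas13d, its high-fidelity variant HiFi-RfxCas13d and DiCas7-11, each with the crRNA against the mouse ataxin-2 transcript (mATXN2) or the non-targeted crRNA (NTG). The remaining groups were untransfected cells, the negative control, and the positive control, in which an antisense oligonucleotide (ASO) targeted ataxin-2. No time of harvest is recorded for either of these groups, so a difference in culture time cannot be told apart from treatment. Transfection was transient and the labels mention no sorting of transfected cells. They give no group with a transfection alone or with an ASO that has no target, so that an effector cannot be told apart from its delivery, nor the ASO's target from its chemistry. The columns of the deposited table call the NTG samples EV and the mATXN2 samples G12, where the sample titles write NTG and G10, and the groups here follow the titles. The labels do not say whether the 3 samples of a group came from separate cultures, and the p-values measure the spread between these samples.

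Entry into mitosis is set by the kinase CDK1, which is switched on when it binds cyclin B and when CDC25 phosphatases remove an inhibiting phosphate. Plk1 and the Aurora kinases then build the spindle, condensin and topoisomerase II shape the chromosomes, and kinetochores tie the chromosomes to microtubules. The spindle checkpoint (Bub1, Bub1b, Mad2l1, Ttk) holds back the anaphase-promoting complex until every kinetochore is attached, after which Cdc20 activates that complex and cyclin B is destroyed. Midzone motors and bundlers such as Kif23 and Prc1 then position the cleavage furrow. Most of these transcripts are made periodically, under the MuvB complexes and Foxm1, and peak as cells pass from G2 into mitosis, so that growing cell lines hold them at high levels. In RNA from a whole culture, fewer cells in G2 or mitosis and less of a transcript per cell cannot be told apart.

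The promoters of these genes are known for 2 short elements, the cell cycle homology region (TTTGAA), which MuvB complexes bind, and the CCAAT box, which the factor NF-Y binds. Of the 43 genes, 35 had an entry in the RefSeq promoter table for GRCm38.p6, which covers 250 bases before and 50 bases after each transcription start. Those without an entry were Ccna2, Cdc25c, Foxm1, Aurkb, Incenp, Tpx2, Kif20a and Smc4. A member was counted once if any of its entries matched (2 members had 2 entries), whereas the background was counted by entry. TTTGAA on either strand was found in 26 of the 35 (74.3%), against 17.9% of all 32851 entries. CCAAT on either strand was found in 28 of the 35 (80%), against 37.4% of all entries. Both were present in 23 of the 35 (65.7%), against 6.95% of all entries, and the pair overlapped once among the members. The 150 bases before the start are printed for 3 genes that were lower with the ASO (Cdk1, Top2a, Kif11) and 2 that were higher (Cdc20, Nek2), 5′ to 3′ on the gene's strand, with both elements in capitals on whichever strand they lie (TTCAAA is the first read on the other strand and ATTGG the second).
Cdk1, chr10:69352913-69353062, minus strand: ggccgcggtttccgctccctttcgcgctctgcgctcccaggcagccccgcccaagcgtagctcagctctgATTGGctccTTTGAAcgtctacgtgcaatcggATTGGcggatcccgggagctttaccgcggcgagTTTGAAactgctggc
Top2a, chr11:99024190-99024339, minus strand: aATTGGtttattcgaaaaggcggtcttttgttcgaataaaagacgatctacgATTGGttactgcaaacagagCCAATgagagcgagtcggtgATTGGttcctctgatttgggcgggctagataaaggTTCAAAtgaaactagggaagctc
Kif11, chr19:37376232-37376381, plus strand: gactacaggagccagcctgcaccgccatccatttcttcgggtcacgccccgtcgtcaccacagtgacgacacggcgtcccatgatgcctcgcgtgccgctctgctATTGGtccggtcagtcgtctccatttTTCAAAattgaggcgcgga
Cdc20, chr4:118437344-118437493, minus strand: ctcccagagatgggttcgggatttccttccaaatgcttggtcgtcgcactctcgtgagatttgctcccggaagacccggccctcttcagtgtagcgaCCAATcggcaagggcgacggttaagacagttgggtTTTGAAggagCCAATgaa
Nek2, chr1:191821323-191821472, plus strand: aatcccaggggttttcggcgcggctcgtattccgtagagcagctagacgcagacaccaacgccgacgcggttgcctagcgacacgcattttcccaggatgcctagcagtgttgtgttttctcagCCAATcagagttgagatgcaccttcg
Within these windows Cdk1 held 2 matches to TTTGAA, at 71 and 15 bases before the start, and Top2a, Kif11 and Cdc20 held 1 each, at 23, 19 and 18 bases. Nek2 held none and had 1 CCAAT match. By response to the ASO described next, TTTGAA was present in 4 of 6 genes that rose, 13 of 18 that fell and 9 of 11 that were not called. CCAAT was present in 5 of 6, 15 of 18 and 8 of 11, in that order. Differences between these shares were not tested. A match describes the letters only and not binding.

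Neuro2A cells expressed the whole set. To compare genes, CPM was divided by coding length, and on that scale 40 of the 43 were above the median of the tested genes in untransfected cells, which was 22.4 CPM per kb against a median of 58.0 over the members. Racgap1, part of the centralspindlin complex of the midzone, stood at 417 ± 9.89 CPM per kb (SD, n = 3) and was the highest. Top2a, the topoisomerase that untangles sister chromatids, followed at 342 ± 15.4, Birc5 (survivin) at 324 ± 18.1 and Cdk1 at 299 ± 6.99. Neighbours in this order were within their spread in places, as with Top2a and Birc5. The lowest were the spindle pole protein Aspm at 14.1 ± 0.601, the phosphatase Cdc25c at 17.1 ± 0.424 and the kinetochore motor Cenpe at 21.7 ± 1.31. The members together held 0.869% ± 0.0193 of all deposited counts, before normalisation, in untransfected cells and 0.826% ± 0.0135 with the ASO, the lowest group mean. The DiCas7-11 NTG group had the highest, 0.910% ± 0.0358.

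Total counts per sample ran from 12665725 to 22504999, with the ASO samples deepest (21874644 and above). Replicates differed by 1.68 to 2.55 times counting noise in 7 groups and by 3.33 to 5.58 times among the DiCas7-11 NTG samples. A pair of libraries stood apart for these genes, DiCas7-11 NTG replicate 2, in which they were high, and untransfected replicate 1, in which they were low. Atxn2 itself was at 123 ± 1.78 CPM in untransfected cells and 52.0 ± 2.77 CPM with the ASO (log2 -1.25, adjusted p = 1.65e-19). It was lower with mATXN2 than with NTG for HiFi-RfxCas13d (101 against 119 CPM, adjusted p = 0.00157) and DiCas7-11 (103 against 118 CPM, adjusted p = 0.00557), whereas for RfxCas13d (114 against 122 CPM) the adjusted p was 0.178. Of 17 neuroblastoma genes 13 passed the filter, with a summed level of 1457 to 1552 CPM in every sample, though Hand1, Nefl and Nefm were near 0. Of 16 genes of glia, blood, vessel, fibroblast and epithelial cells 6 passed, summing to 22.2 to 31.6 CPM, and Aqp4 and Epcam were at 0 throughout. With the ASO 2 of those 6 rose and 1 fell, where 21% of all genes rose and 21.7% fell. The lowest adjusted p was that of the macrophage marker Cd68 (log2 2.72 ± 0.58, edgeR adjusted p = 0.000381), which reached at most 2.28 CPM in any sample. With NTG none rose, and 0, 1 and 1 fell for RfxCas13d, HiFi-RfxCas13d and DiCas7-11, where 5.66%, 10.6% and 10.8% of all genes fell. The part of these markers in the members' results was not tested.

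The ASO group showed the broadest difference, and it went in both directions. Against untransfected cells 22 of the 43 genes fell and 6 rose (edgeR quasi-likelihood test, Benjamini-Hochberg adjusted p under 0.05), a call rate to be read against 42.7% of all genes, of which 21% rose and 21.7% fell. The genes that fell most act on chromosomes and at the entry into mitosis: Top2a, Smc4 and Cdk1. Those that rose included Nek2, Cdc20 and Ccnb1. The sizes were small, from -0.36 to 0.24 on the log2 scale, with a median of -0.09 over the 43 genes and -0.0021 over all tested genes. In 33 of the 43 genes the ASO and untransfected samples did not overlap, 22 with the ASO below and 11 above, against 51.8% of all genes without overlap.

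**Figure D1:**
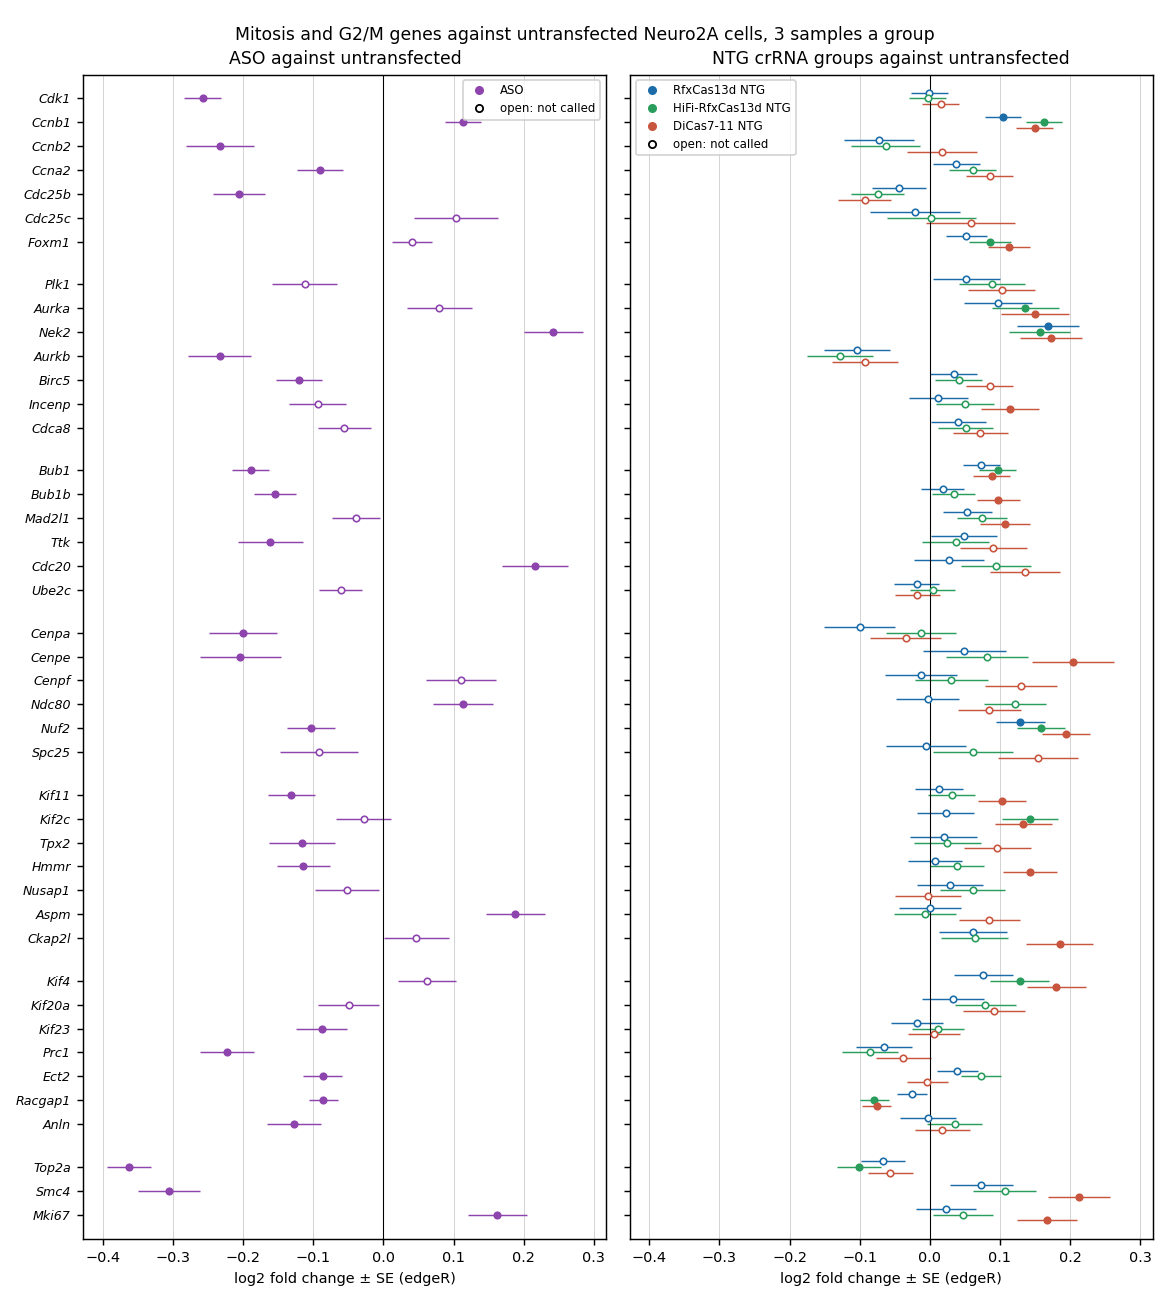
Log2 fold change (x axis, ± SE) of each of the 43 genes (rows, grouped by role) for the ASO (left) and the 3 NTG groups (right) against the same 3 untransfected samples; filled points passed an adjusted p of 0.05. With the ASO 22 genes lie below 0 and 6 above among the filled points, while with NTG the filled points lie mostly to the right, 17 for DiCas7-11.

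Among the 7 genes of the CDK1 switch, 4 fell and 1 rose with the ASO. Cdk1 was at 259, 270 and 270 CPM in the untransfected samples and at 221, 227 and 219 CPM with the ASO. The groups were well separated and the level fell by 16.4% (log2 -0.26 ± 0.026 SE, adjusted p = 3.74e-09). Cdc25b, a phosphatase that activates CDK1, went from 89.0, 85.9 and 85.2 CPM to 75.7, 77.0 and 72.9 CPM (log2 -0.21 ± 0.037, adjusted p = 4.47e-05). Cyclin B1, the partner of CDK1, went the other way: Ccnb1 was at 267, 275 and 281 CPM without and 301, 298 and 291 CPM with the ASO (log2 0.11 ± 0.025, adjusted p = 0.000594). Its paralogue Ccnb2 fell (log2 -0.23), as did Ccna2 (log2 -0.09, called in 12 of 17 alternative settings), so the mitotic cyclins did not move as one. Cdc25c and Foxm1 did not pass, at log2 values of 0.10 and 0.04.

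Of the 7 mitotic kinases and chromosomal passenger genes, Aurkb and Birc5, which belong to the passenger complex, fell and Nek2 rose. Nek2, the kinase that parts the centrosomes before the spindle forms, was at 64.0, 72.3 and 72.5 CPM in untransfected cells and 83.7, 81.2 and 81.8 CPM with the ASO (log2 0.24 ± 0.042, adjusted p = 2.77e-05). It was the highest rise in the set, and no ASO sample reached down to the untransfected range. Plk1, the polo-like kinase needed for spindle assembly, just missed the threshold: 79.4, 85.6 and 77.8 CPM against 70.4, 77.4 and 77.4 CPM (log2 -0.11 ± 0.046, adjusted p = 0.0515). Incenp and Cdca8, the other passenger genes, had log2 values of -0.09 and -0.06, and Aurka one of 0.08; none of the 3 passed.

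The spindle checkpoint kinases and the activator that they restrain differed in direction. Bub1 was at 179, 183 and 182 CPM in untransfected cells and at 159, 160 and 158 CPM with the ASO (log2 -0.19 ± 0.026, adjusted p = 9.6e-07). Bub1b, which encodes the checkpoint protein BubR1, fell from 179, 182 and 188 CPM to 169, 162 and 161 CPM (log2 -0.16 ± 0.030, adjusted p = 0.00011), and Ttk fell as well (log2 -0.16). Cdc20 rose from 46.4, 49.5 and 48.6 CPM to 55.1, 54.0 and 58.7 CPM (log2 0.22 ± 0.048, adjusted p = 0.000486). In each of Bub1, Bub1b and Cdc20 the groups were apart. Mad2l1 and Ube2c, the checkpoint inhibitor and an E2 enzyme of the anaphase-promoting complex, did not pass (log2 -0.04 and -0.06).

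At the kinetochore, Cenpa, Cenpe and Nuf2 fell, Ndc80 rose, and Cenpf and Spc25 did not pass. Cenpa, the histone H3 variant that marks centromeres, was at 60.6, 54.2 and 55.9 CPM in untransfected cells and 48.8, 47.6 and 52.1 CPM with the ASO (log2 -0.20 ± 0.049, adjusted p = 0.00139). Nuf2 and Ndc80, which bind each other in one microtubule-binding complex, were called in opposite directions, at log2 -0.10 and 0.11. Ndc80 was weakly called (adjusted p = 0.032) and passed in 10 of 17 alternative settings.

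Among the spindle motors and microtubule-binding proteins, Kif11, Tpx2 and Hmmr fell, Aspm rose and 3 genes did not pass. Tpx2, a spindle assembly factor, kept its call in 9 of 17 alternative settings. Kif11, the plus-end motor that pushes spindle poles apart, was at 213, 230 and 221 CPM without and 202, 200 and 204 CPM with the ASO (log2 -0.13 ± 0.034, adjusted p = 0.00211). The other three genes of this role, Kif2c, Nusap1 and Ckap2l, lay between -0.05 and 0.05. Of the 7 midzone and cytokinesis genes 5 fell and none rose (Kif4 at log2 0.06 and Kif20a at -0.05 did not pass). Prc1, which crosslinks midzone microtubules, went from 169, 180 and 184 CPM to 150, 154 and 151 CPM (log2 -0.22 ± 0.039, adjusted p = 2.85e-05). Anln, Kif23, Ect2 and Racgap1 fell by less, at log2 -0.13 for Anln and -0.09 for the other three, and Kif23 (adjusted p = 0.0498) kept its call in 5 of 17 alternative settings.

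The chromosome genes held the most extreme falls of the set. Top2a was at 1487, 1605 and 1612 CPM in untransfected cells and at 1194, 1222 and 1243 CPM with the ASO. It fell by 22.2% (log2 -0.36 ± 0.032, adjusted p = 2.15e-10). Smc4, a core subunit of condensin, fell by 19.1%, from 593, 632 and 617 CPM to 488, 491 and 510 CPM (log2 -0.31 ± 0.044, adjusted p = 2.04e-06). For both genes each ASO sample was below every other sample of the series. Mki67, the coat protein of mitotic chromosomes whose antigen marks cycling cells, was at 534, 553 and 541 CPM and at 573, 620 and 629 CPM with the ASO (log2 0.16 ± 0.042, adjusted p = 0.00251).

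**Figure D2:**
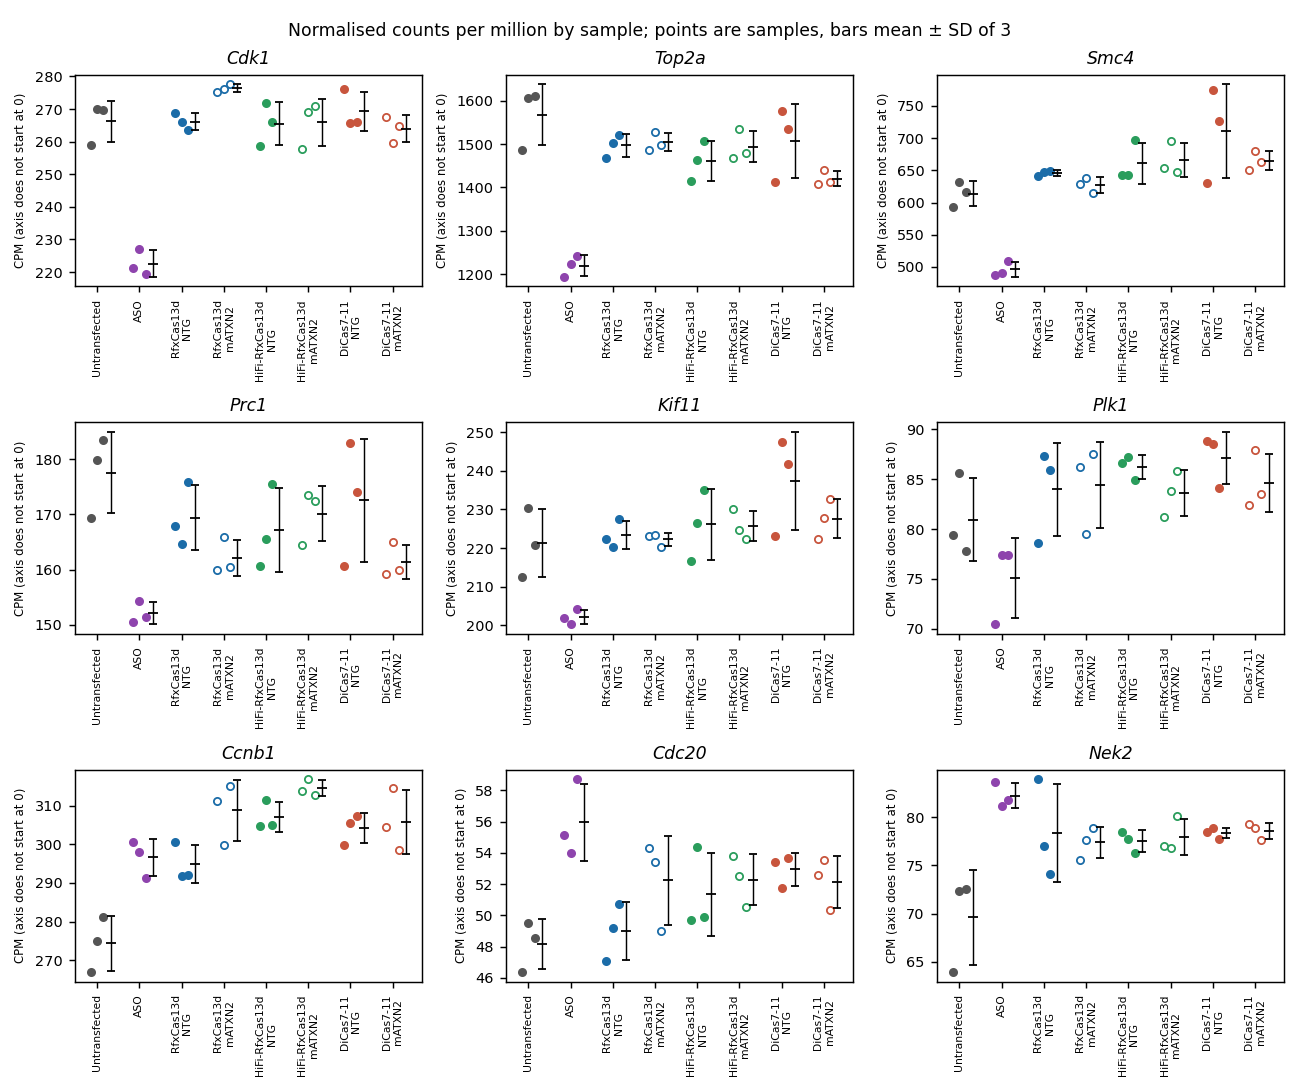
Normalised CPM (y axis, not starting at 0) of 9 members in each of the 24 samples, by group, with mean ± SD of 3; open points are mATXN2 groups. The ASO samples of Cdk1, Top2a and Smc4 sit below all other samples, and for Ccnb1 and Nek2 every transfected or ASO sample sits above the untransfected ones.

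The length of a transcript moved with these values. When the trend of each sample on coding length, over 12128 genes with a length, was subtracted before a limma-trend fit, 21 members fell and 4 rose with the ASO, where 45.1% of the 12128 genes were called in the same corrected fit. Mki67, with 9531 coding bases, went from 0.16 to -0.03 (limma-trend adjusted p = 0.449), and Aspm, with 9366, from 0.19 to -0.0036 (adjusted p = 0.949). The calls for these very long genes thus held only without the correction. Cenpe, with 7413 coding bases, moved further down, from -0.21 to -0.35. Cdk1 stood at -0.24, Top2a at -0.42, Smc4 at -0.34, Nek2 at 0.26, Cdc20 at 0.23 and Ccnb1 at 0.14 after it, and these 6 kept their calls. Ccna2, with 1266 coding bases, went from -0.09 to -0.07 and no longer passed (limma-trend adjusted p = 0.107). Birc5 and Cenpa, the shortest members at 420 and 402 coding bases, went to -0.04 and -0.11 and no longer passed (limma-trend adjusted p = 0.318 and 0.0589). The depth of the ASO samples was the highest of all groups, and its part in the differences was not tested.

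**Figure D3:**
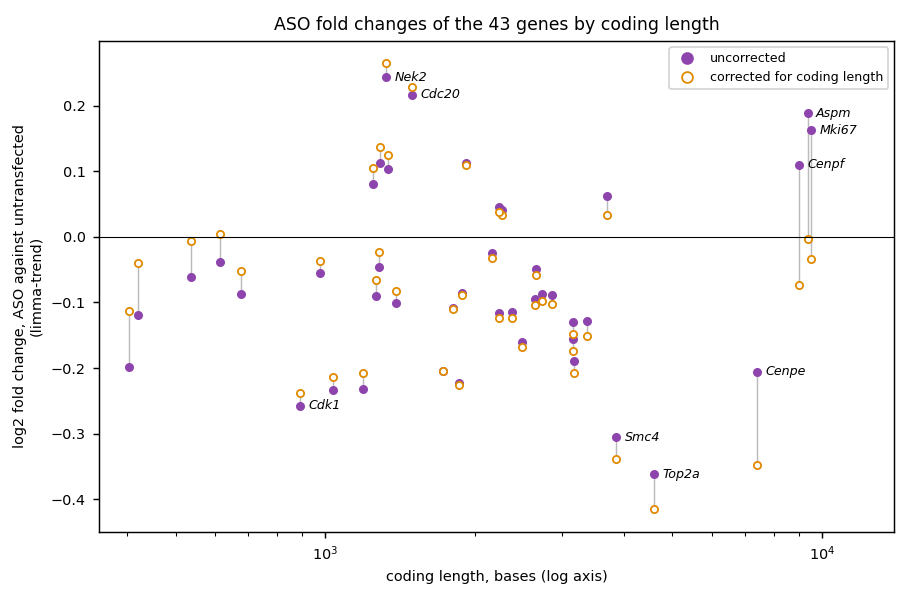
Log2 fold change with the ASO (y axis, limma-trend) of the 43 genes against coding length (x axis, log scale), before (filled) and after (open) subtraction of the length trend. The grey lines are longest for Mki67, Aspm, Cenpf and Cenpe; Top2a, Smc4, Cdk1, Nek2 and Cdc20 keep their sign.

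Other genes of the same pathways were read from lists that contain none of the members, and each count is to be read against the 21% of all genes that rose and the 21.7% that fell with the ASO. Of 17 condensin, cohesin and separase genes 8 fell and 2 rose with the ASO, led by Ncapg, another condensin subunit (log2 -0.27 ± 0.034, adjusted p = 2.12e-07). Of 20 further spindle and cytokinesis genes 8 fell and 4 rose, led by Ckap5, a microtubule polymerase (log2 -0.47 ± 0.035, adjusted p = 8.74e-12). The other 21 kinetochore and checkpoint genes leaned upwards against untransfected cells, with 7 up, 1 down and a median of 0.08. The gene that fell was Cenpc1 (log2 -0.29 ± 0.045, adjusted p = 4.85e-06), a centromere protein that binds CENP-A nucleosomes. Of 12 mitotic entry regulators 4 fell and 2 rose, of 17 subunits and regulators of the anaphase-promoting complex 4 fell and 2 rose, and of 12 MuvB and MYB genes 3 fell and 4 rose. Of 26 G1/S and replication genes 5 rose and 5 fell against untransfected cells. Of 11 tested CDK inhibitors and G2 arrest genes 4 fell and 1 rose, with the antiproliferative gene Btg2 lowest (log2 -0.87 ± 0.095, adjusted p = 1.85e-08).

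The NTG groups carry an effector and a crRNA with no target, and against the same untransfected samples their members were called mostly upwards. Since the 3 comparisons and that of the ASO share those 3 samples, their values are given side by side and are not independent. With RfxCas13d 3 genes rose and none fell, where 11.3% of all genes were called, 5.6% up and 5.66% down. With HiFi-RfxCas13d 8 rose and 2 fell, where 20.9% of all genes were called, 10.3% up and 10.6% down. With DiCas7-11 17 rose and 1 fell, where 21.9% of all genes were called, 11.1% up and 10.8% down. The median over the members was 0.02, 0.05 and 0.09, in that order.

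Ccnb1, Nek2 and Nuf2 rose in all 3 NTG groups. Ccnb1 was at 301, 292 and 292 CPM with RfxCas13d, at 305, 311 and 305 CPM with HiFi-RfxCas13d and at 300, 305 and 307 CPM with DiCas7-11, above the 3 untransfected samples in every case. The log2 changes were 0.10, 0.16 and 0.15 (adjusted p = 0.00822, 3.68e-05 and 0.000105). Nuf2, which was lower with the ASO, was at 118, 121 and 115 CPM in untransfected cells and at 126 to 143 CPM over the NTG samples (log2 0.13, 0.16 and 0.19, adjusted p = 0.0139, 0.00131 and 0.000139). Nek2 lay between 74.1 and 83.9 CPM in those samples, again above all untransfected ones (log2 0.17, 0.16 and 0.17, adjusted p = 0.0112, 0.0105 and 0.00493). Cdk1, by contrast, had log2 values of -0.0015, -0.0027 and 0.02 and was called in none.

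Beyond these 3, the genes that rose with HiFi-RfxCas13d were Aurka, Bub1, Foxm1, Kif2c and Kif4, and Racgap1 and Top2a fell. The call of Foxm1 held in 8 of 17 alternative settings and that of Aurka in 11. Bub1 was at 193, 192 and 197 CPM there, against 179, 183 and 182 CPM (log2 0.10 ± 0.026, adjusted p = 0.00893), and Racgap1 at 739, 741 and 751 CPM against 807, 778 and 772 CPM (log2 -0.08 ± 0.021, adjusted p = 0.00685). The samples did not overlap in either gene. The microtubule depolymerase Kif2c had a log2 change of 0.14 (adjusted p = 0.011), the chromokinesin Kif4 one of 0.13 (adjusted p = 0.0286) and Top2a one of -0.10 (adjusted p = 0.0212), with Top2a samples overlapping.

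With DiCas7-11 the genes that rose came from every role, among them 4 of the 7 spindle motors and microtubule-binding proteins (Kif11, Kif2c, Hmmr, Ckap2l), 3 of the 6 checkpoint genes (Bub1, Bub1b, Mad2l1) and 2 of the 3 chromosome genes (Smc4, Mki67). Ccnb1 and Foxm1 of the CDK1 switch, Aurka, Nek2 and Incenp of the kinases and passengers, Cenpe and Nuf2 of the kinetochore and Kif4 of the midzone made up the rest, and Racgap1 fell (log2 -0.08). Smc4 was at 631, 774 and 727 CPM against 593, 632 and 617 CPM (log2 0.21 ± 0.044, adjusted p = 0.00083). Its first sample lay within the untransfected range and the other two far above. Kif4 stood at 100, 113 and 109 CPM against 98.1, 92.1 and 94.6 CPM (log2 0.18 ± 0.042, adjusted p = 0.00237), Mki67 at 558, 622 and 646 CPM (log2 0.17 ± 0.043, adjusted p = 0.0052), and Ckap2l, a spindle pole protein, at 116, 131 and 117 CPM (log2 0.19 ± 0.048, adjusted p = 0.00546). Foxm1, the transcription factor of the G2/M programme, was at 142, 143 and 140 CPM against 132, 131 and 130 CPM (log2 0.11 ± 0.030, adjusted p = 0.00635), with little spread in either group.

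The DiCas7-11 count rested in part on single libraries. Without DiCas7-11 NTG replicate 2 it was 8 (7 up, 1 down) and without untransfected replicate 1 it was 9 (7 up, 2 down). Without both it was 5 (4 up, 1 down). Both libraries were picked by the members' own values, so a lower count without them follows from that choice. Without DiCas7-11 NTG replicate 1, where the members were lowest in that group, the count was 23 (22 up, 1 down). For RfxCas13d no member was called without NTG replicate 1, with the edgeR fit otherwise unchanged, and without untransfected replicate 1 there were 3 calls, 1 up and 2 down. For HiFi-RfxCas13d leaving out untransfected replicate 1 or 3 gave 6 calls. The same libraries show in the median of the members per sample, which was -0.04 on the log2 scale in untransfected replicate 1 and 0.03 and 0.02 in the other two, and 0.03, 0.13 and 0.10 in the DiCas7-11 NTG samples. The ASO samples had medians of -0.11, -0.08 and -0.06, below all others, and the ASO count was 29 (5 up, 24 down) without untransfected replicate 1.

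**Figure D4:**
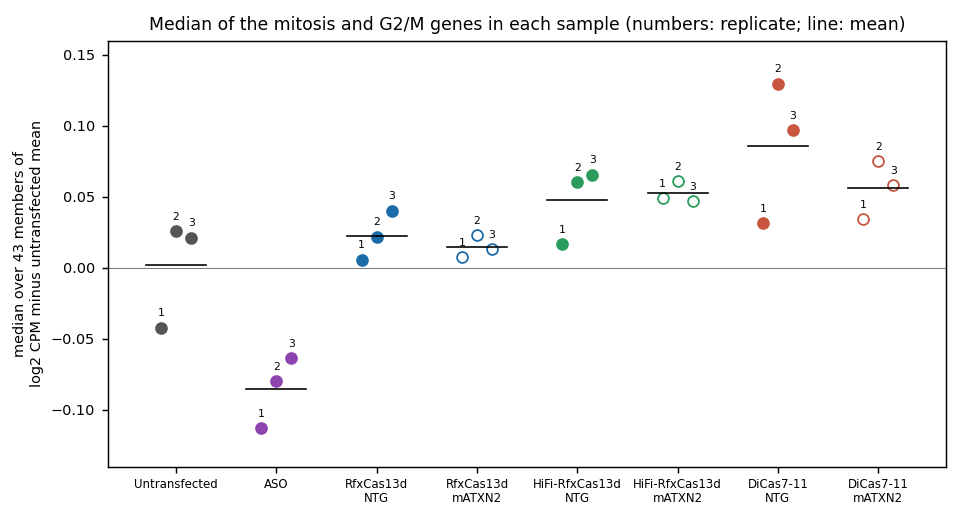
Median over the 43 genes of log2 CPM minus the untransfected mean (y axis) in each of the 24 samples by group, with the replicate number above each point and the group mean as a line. The 3 ASO samples sit between -0.11 and -0.06, untransfected replicate 1 sits at -0.04, and DiCas7-11 NTG replicate 2 is highest at 0.13.

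Genes of G1/S and DNA replication were also called upwards with NTG, 6, 11 and 13 of 26 for RfxCas13d, HiFi-RfxCas13d and DiCas7-11 and none downwards. Of all genes 5.6%, 10.3% and 11.1% were called upwards in these comparisons. Cdc25a, a phosphatase of both S phase entry and mitosis, was the leading gene of the mitotic entry list (log2 0.20, 0.28 and 0.29, adjusted p = 0.00257, 3.68e-05 and 2.22e-05). In either direction 11.3%, 20.9% and 21.9% of all genes were called with NTG, in the same order, and 42.7% with the ASO. Of 13 tested neuroblastoma genes 1 rose and 2 fell with RfxCas13d and 2 rose and 2 fell with HiFi-RfxCas13d. With DiCas7-11 1 rose and 3 fell, and with the ASO 4 rose and 5 fell. Tubb3, a neuronal tubulin, had the lowest adjusted p of that list in each (log2 -0.22, -0.23, -0.32 and -0.33). The NTG groups compared directly gave few calls among the members: Hmmr, a spindle assembly protein, was higher with DiCas7-11 than with RfxCas13d (210 against 191 CPM, log2 0.13 ± 0.038, adjusted p = 0.0446), where 3.39% of all genes were called. By edgeR 0 members were called between DiCas7-11 and HiFi-RfxCas13d (0.705% of all genes) and 0 between HiFi-RfxCas13d and RfxCas13d (0.619%). At an unadjusted p under 0.05 there were 9 and 4 members, in that order (12% and 9.94% of all genes).

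Set against the mean of the 3 NTG groups, which were transfected cells, 28 members fell and 2 rose with the ASO, where 40.4% of all genes were called, 19.5% up and 20.9% down. The genes that rose were Aspm and Cdc20. Bub1 had the lowest adjusted p (159 against 192 CPM, log2 -0.28 ± 0.021, adjusted p = 1.92e-11), and Smc4 the largest fall (496 against 672 CPM, log2 -0.44 ± 0.037, adjusted p = 1.2e-10). Plk1, which missed the threshold against untransfected cells, passed here (75.1 against 85.8 CPM, log2 -0.19 ± 0.037, adjusted p = 9.88e-05). Ccnb1, Nek2 and Mki67 were not called. In the same comparison 0 of the 26 G1/S and replication genes rose and 12 fell. Of the 21 other kinetochore and checkpoint genes 6 rose and 4 fell, with a median of -0.03. Of the 17 condensin, cohesin and separase genes 1 rose and 12 fell, and of the 20 further spindle and cytokinesis genes 2 rose and 9 fell.

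The crRNA against ataxin-2 was compared with NTG within each effector, which is the comparison that bears on cutting the target. Atxn2 itself was lower by 6.87% for RfxCas13d (edgeR adjusted p = 0.178), 14.8% for HiFi-RfxCas13d and 13.0% for DiCas7-11. With the ASO it was lower by 57.8% than in untransfected cells. No member was called by edgeR for any single effector, while over all genes the share called was 1.39% with RfxCas13d, 0.295% with HiFi-RfxCas13d and 0.942% with DiCas7-11. At an unadjusted p under 0.05 there were 7, 4 and 9 members (13.8%, 7.45% and 14.0% of all genes), and DESeq2 called 0 in each; limma-trend called 0 in each when adjusted within a comparison and 0, 2 and 1 when adjusted over 10 comparisons. The log2 values ran from -0.10 (Kif4) to 0.11 (Cenpf) for RfxCas13d, from -0.14 (Kif2c) to 0.14 (Mki67) for HiFi-RfxCas13d and from -0.13 (Nusap1) to 0.09 (Foxm1) for DiCas7-11. Their standard errors were between 0.021 and 0.064. Without DiCas7-11 NTG replicate 1, 6 members were called lower with mATXN2 for DiCas7-11. The share of all genes called was not counted for that fit, nor for limma-trend adjusted over 10 comparisons. The smallest adjusted p was 0.182 for RfxCas13d (Nuf2), 0.191 for HiFi-RfxCas13d (Kif2c) and 0.128 for DiCas7-11 (Foxm1).

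**Figure D5:**
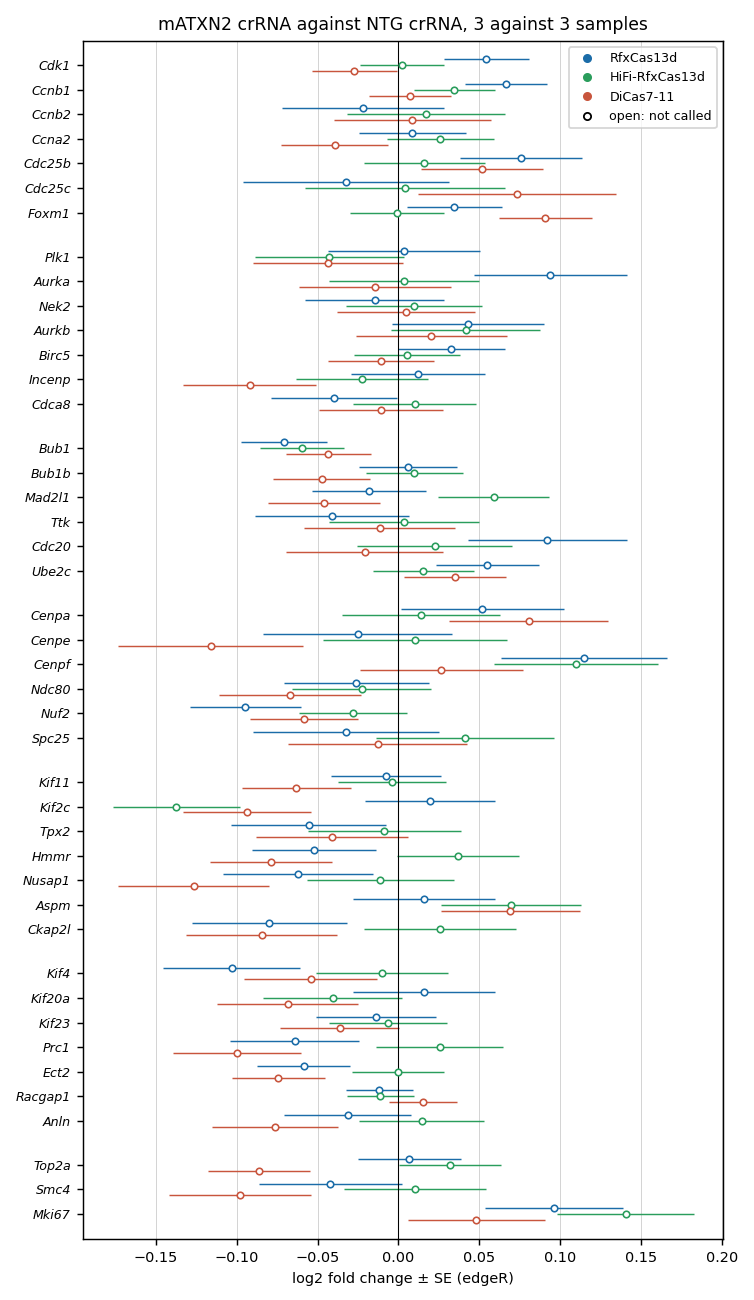
Log2 fold change (x axis, ± SE) of the 43 genes (rows, grouped by role) between the mATXN2 and NTG crRNAs for each effector, 3 against 3 samples. All points are open, since no gene passed an adjusted p of 0.05, and all lie between -0.14 and 0.14.

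Averaged over the 3 effectors, 1 member rose and 1 fell, where 5.19% of all genes were called, 2.95% up and 2.24% down. Mki67 was at 526, 556 and 571 CPM with NTG and 588, 605 and 575 CPM with mATXN2 for RfxCas13d. For HiFi-RfxCas13d it was at 533, 566 and 583 CPM and 600, 641 and 613 CPM, and for DiCas7-11 at 558, 622 and 646 CPM and 639, 647 and 603 CPM. The groups were apart for both Cas13d forms and overlapped for DiCas7-11, and the mean log2 change was 0.09 ± 0.025 (adjusted p = 0.0186). With the correction for coding length Mki67 was at -0.02 (limma-trend adjusted p = 0.744), so this call too held only without the correction. Bub1 was at 190, 189 and 193 CPM against 179, 181 and 186 CPM for RfxCas13d, at 193, 192 and 197 CPM against 184, 189 and 185 CPM for HiFi-RfxCas13d, and at 185, 198 and 194 CPM against 185, 190 and 186 CPM for DiCas7-11. The mean log2 change of Bub1 was -0.06 ± 0.015 (adjusted p = 0.0199), and the DiCas7-11 samples overlapped. Without DiCas7-11 NTG replicate 1 the count was 7, 1 up and 6 down, and without replicate 3 it was 5, 2 up and 3 down. The share of all genes called was not counted in fits that left out a library. Without DiCas7-11 NTG replicate 2, or without HiFi-RfxCas13d NTG replicate 3, only the call of Mki67 remained. Without RfxCas13d NTG replicate 1 Mki67 was not called, and 2 genes were called lower.

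Whether the response to mATXN2 differed between effectors was tested as a difference of differences. By edgeR 0 members were called for HiFi-RfxCas13d against RfxCas13d, 0 for DiCas7-11 against RfxCas13d and 0 for HiFi-RfxCas13d against DiCas7-11, where 0% of all genes were called in each. At an unadjusted p under 0.05 there were 1, 2 and 5 members (6.15%, 7.8% and 7.4% of all genes). DESeq2 and limma-trend called 0 members in each. The most extreme was Kif2c between both Cas13d forms, at -0.16 ± 0.056 (adjusted p = 0.741). Of the pathway lists, single genes passed within an effector. Espl1, which encodes separase, was higher with mATXN2 for RfxCas13d (log2 0.26 ± 0.039, adjusted p = 0.00037). The kinesin Kif20b was lower for DiCas7-11 (log2 -0.21 ± 0.051, adjusted p = 0.0336). Averaged over the effectors, 2 of 17 condensin, cohesin and separase genes rose and 3 fell, where 2.95% of all genes rose and 2.24% fell. In that average 1 gene rose in each of the anaphase-promoting complex, kinetochore, spindle and G1/S lists. In each of the MuvB and neuroblastoma lists 1 fell, and the other lists had 0 calls.

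The mATXN2 groups were also compared with untransfected cells, and these comparisons share the same 3 control samples with those of the NTG groups. With RfxCas13d 3 members rose (Ccnb1, Aurka, Nek2) and Prc1 fell, where 12% of all genes were called, 5.98% up and 6.03% down. With HiFi-RfxCas13d 9 rose and 1 fell, where 22.2% of all genes were called, 11.3% up and 10.9% down. With DiCas7-11 9 rose and 5 fell, where 25.3% of all genes were called, 12.5% up and 12.8% down. Ccnb1 rose in each (log2 0.17, 0.20 and 0.16, adjusted p = 3.71e-05, 2.34e-06 and 3.78e-05). The genes that fell with DiCas7-11 and mATXN2 were Top2a, Prc1, Racgap1, Nusap1 and Ect2, from -0.14 for Top2a to -0.06 for Racgap1.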

How the data were processed

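RNA from Neuro2A cells was made into stranded mRNA libraries and sequenced from one end. The authors quantified the reads with Salmon 1.5.2 against the mouse transcriptome of NCBI (GRCm39) and obtained gene totals by tximport (lengthScaledTPM) in R 4.2.2; the deposited values are expected counts, not scaled for depth, which keep multi-mapped reads. A further column marks the 12874 genes the authors kept and was not used.

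Expected counts were rounded to whole numbers, a gene was kept if 3 or more samples had 0.5 CPM or more, and all 24 samples in 8 groups were fitted together with edgeR 4.0.16 (quasi-likelihood F test, TMM normalisation, R 4.3.3). P-values were adjusted by Benjamini-Hochberg over the 13901 genes within a comparison and called at 0.05, two-sided. CPM in the text is TMM-normalised, and ± after a log2 change is its SE. The filter and the levels of the cell type markers used CPM scaled by total counts only. The authors' own test was limma-trend adjusted over 10 comparisons; it was run as an alternative (limma 3.58.1, prior count 3), as were DESeq2 1.42.0, other filters and scalings, fits of fewer groups, the replicate block, each library left out and a lowess correction (span 0.3) for coding length from GENCODE M21 (GRCm38), matched by Entrez ID to 87.2% of tested genes and to all 43 members. The scripts were tested on simulated data. The total counts of 12665725 to 22504999 per sample limit the precision together with the spread of 3 samples.

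The members and lists were chosen with earlier results of these data known. Named in full were called members, at most the 8 with the lowest adjusted p in a comparison, and Cdk1, Plk1, Cdc20, Cenpa, Kif11, Prc1, Top2a, Ccnb1 and Mki67; from each list only the called gene with the lowest adjusted p was named, and 1 such result is not reported here. The comparisons of mATXN2 groups with untransfected cells, between NTG groups and of the ASO with the NTG mean, limma-trend adjusted within a comparison and the fits without both doubted libraries were added after seeing the data. Same-numbered samples deviated together for mATXN2 and NTG of RfxCas13d (correlations of deviations from the group means of 0.23, 0.23 and 0.46), and not in every pair of any other comparison; where this pairing comes from is not stated. The replicate block alone left the RfxCas13d counts at 0 for mATXN2 against NTG and 3 for NTG against untransfected cells. Added to the coding length correction, it took the latter from 4 to 5.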

Additional observations from a re-analysis of the deposited data

How the results depend on the processing

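The 61 calls of members in the comparisons of the design were recomputed in 1061 combinations of gene and setting, of which 908 kept the call, 147 lost it with the same direction and 6 reversed. The reversals were those of the very long genes under the coding length correction, the same with and without the replicate block: Aspm at -0.0036 and Mki67 at -0.033 with the ASO, and Mki67 at -0.015 for mATXN2 against NTG over 3 effectors.

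For mATXN2 against NTG the count of 0 became 2 for each effector when every gene with a nonzero count was tested, 1 for RfxCas13d and 1 for HiFi-RfxCas13d when only the groups compared were fitted, and 2 for HiFi-RfxCas13d and 1 for DiCas7-11 with limma-trend adjusted over 10 comparisons. The mean over effectors gave 1 call without both DiCas7-11 NTG replicate 2 and untransfected replicate 1. For NTG against untransfected cells, DiCas7-11 gave 7 calls when only the groups compared were fitted and 5 without those libraries, against 18. The other counts stayed within 1.5 times the reported ones in the settings that left out no library and used no replicate block. The causes were not tested. Calls over all genes were counted only for the reported fit, limma-trend adjusted within a comparison and the coding length correction without the replicate block.

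The replicate block, where the numbers are not known to pair the samples, gave 1 call for mATXN2 against NTG with DiCas7-11 and 2 with the coding length correction added; that pair of settings also gave 5 calls for NTG against untransfected cells with RfxCas13d and 18 with HiFi-RfxCas13d, against 3 and 10. For the ASO the block gave 31 calls against 28. The block alone moved no other count by over 1.5 times.

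Leaving out each library in turn gave 0 calls for mATXN2 against NTG with RfxCas13d and HiFi-RfxCas13d, 0 to 6 with DiCas7-11 and 1 to 7 for the mean over effectors. It gave 0 to 3, 6 to 8 and 8 to 23 calls for NTG against untransfected cells with RfxCas13d, HiFi-RfxCas13d and DiCas7-11, 21 to 29 for the ASO, and 0 for the differences between effectors. Depth and 3 samples a group set standard errors of 0.021 to 0.064 on the log2 scale for mATXN2 against NTG.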
